A study of Mus musculus with 24 samples.

Results

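Chrna5, Chrna3 and Chrnb4 are 3 genes for nicotinic acetylcholine receptor subunits that lie side by side on mouse chromosome 9, and they were followed here as 3 of 54232 genes counted by RNA sequencing in the cerebellum of 24 mice. The genes were chosen by the measured levels of Chrna3 and Chrnb4, which had been seen to be low against WT in mice with an expanded Atxn1 allele, and Chrna5 was added as the third gene of the locus. Levels against WT are therefore given as a description with no test. SCA1 mice carried a knock-in allele with an expanded CAG repeat and 1 unexpanded allele (Atxn1 154Q/2Q), and spinocerebellar ataxia type 1 is the disease such expansions cause in people. SCA1 S776A mice carried the expanded allele with a serine changed to alanine, which cannot be phosphorylated (S776A), beside an unedited 2Q allele (Atxn1 154Q[S776A]/2Q), and S776A double mice carried the change on both alleles (154Q[S776A]/2Q[S776A]). WT S776A homozygous mice carried it on both unexpanded alleles (2Q[S776A]/2Q[S776A]), and WT mice were 2Q/2Q. All were 6 weeks old and on a C57BL/6J background, with 4 mice in each mutant genotype and 8 WT mice. The serine change was made by genome editing and kept as several founder lines, and the labels do not give the line, litter or sex of a mouse.

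Nicotinic receptors are pentameric cation channels opened by acetylcholine. The alpha-3 subunit, from Chrna3, and the beta-4 subunit, from Chrnb4, form the ligand-binding interface of the alpha-3 beta-4 receptor, which carries fast transmission in autonomic ganglia and is abundant in the medial habenula of the brain, while alpha-5, from Chrna5, is an accessory subunit that joins such receptors without forming the usual binding site. Cholinergic input to the cerebellum is sparse and comes largely from the brainstem.

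In GRCm38, the build of the files, Chrna5 lay at chromosome 9, 54980880 to 55007779 on the plus strand, Chrna3 at 55010111 to 55026562 on the minus strand and Chrnb4 at 55028154 to 55048779 on the minus strand. Chrna5 and Chrna3 converged with 2332 bases between their ends, and 1592 bases separated Chrna3 from the 3′ end of Chrnb4. The 250 bases before the start of Chrna3 and of Chrna5 are printed because the first gene stood low in mice with the expanded allele and the second was close to the detection limit, although the genes are neighbours. Both come from RefSeq on GRCm38.p6, 5′ to 3′ on the strand of the gene, and capitals mark the GC box, GGGCGG or its reverse complement CCGCCC, the letters that Sp1 and Sp3 are known to bind. The Chrna3 window was chr9:55026563-55026812 on the minus strand and the Chrna5 window chr9:54980630-54980879 on the plus strand.
Chrna3: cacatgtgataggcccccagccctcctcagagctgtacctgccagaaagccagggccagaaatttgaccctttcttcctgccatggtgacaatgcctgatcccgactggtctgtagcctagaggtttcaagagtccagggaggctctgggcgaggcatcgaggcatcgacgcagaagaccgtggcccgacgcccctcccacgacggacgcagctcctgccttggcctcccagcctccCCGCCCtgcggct
Chrna5: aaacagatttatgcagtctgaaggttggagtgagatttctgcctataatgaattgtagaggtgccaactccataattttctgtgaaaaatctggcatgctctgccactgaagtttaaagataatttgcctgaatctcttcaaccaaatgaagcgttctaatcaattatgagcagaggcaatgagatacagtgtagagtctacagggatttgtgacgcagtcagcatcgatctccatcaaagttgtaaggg
The Chrna3 window held 1 GC box, which ended close to the start of the gene, and 63.2% of its bases were G or C. The Chrna5 window held none and was 40.0% G or C, against a median of 52.4% over 32851 promoters. A second Chrna5 start in the same table had 4 GC boxes and 65.2% G or C before it, and the window before Chrnb4 had none and 61.2%. These last 2 windows overlap annotated exons and are not printed. Over all promoters of that length, 32.7% held the GC box on either strand. The octamers known for Capicua, a repressor that binds ataxin-1 (TGAATGAA, TGAATGGA, TCAATGAA and TCAATGGA, both strands), were in 3.19% of promoters and in none of the 4 windows of the cluster, which says only that these letters were not there.

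The libraries held 62163600 to 88430180 fragments on genes. The 24 mice fell into 2 sequencing batches by their mapping statistics, with 9.52 to 12.0% of fragments outside genes in the 16 mice of batch 1 and 5.23 to 6.31% in the 8 mice of batch 2, and this split was inferred from the files and not given by the labels. Batch 1 held the SCA1, SCA1 S776A and S776A double mice with WT mice 1 to 4, and batch 2 the WT S776A homozygous mice with WT mice 5 to 8, so that each genotype had WT mice of its own batch. The 3 genotypes with the expanded allele share the same 4 WT mice as their controls. Atxn1 itself was at 50.8 ± 2.22 CPM (the fragment count of a gene per 1000000 fragments on genes, with TMM scaling, mean ± SD, n = 4) in WT mice of batch 1 and at 58.8 ± 3.65 in SCA1 mice, and a gene count shows neither the repeat nor the serine change. Markers of the tissue were present in each group, with 6 of 6 granule cell and 7 of 7 Purkinje cell markers detected. Errors below are SD over 4 mice unless another is named. The edgeR p-values set each difference against a spread between mice that was estimated over all 24. Founder line and litter, absent from the labels, could not be taken into account.

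Chrna3 was low in all mice with the expanded allele, and least so in those that also had the serine change. In WT mice of batch 1, Chrna3 stood at 1.99, 2.08, 2.21 and 1.53 CPM. In SCA1 mice it stood at 0.738, 0.449, 0.584 and 0.374 CPM. Every SCA1 mouse was below every WT mouse, and the mean, 0.537 ± 0.16 CPM, was 27.5% of the WT mean of 1.95 ± 0.298 CPM. SCA1 S776A mice had 0.844, 1.16, 0.904 and 0.801 CPM, and S776A double mice had 0.904, 0.865, 0.934 and 0.974 CPM. These 8 mice lay between the SCA1 and the WT mice without touching either range, at 47.5% and 47.1% of the WT mean. Ranges that lay wholly below WT were seen for 4.99% of the 22502 genes tested in SCA1, 2.52% in SCA1 S776A and 3.54% in S776A double mice. Behind these values were 28 to 179 Chrna3 fragments per library.

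Chrnb4 followed the same order with more spread between WT mice. WT mice of batch 1 had 1.78, 2.74, 1.57 and 1.02 CPM. SCA1 mice had 0.599, 0.515, 0.399 and 0.401 CPM, with a mean of 0.479 ± 0.0968 CPM that was 26.9% of the WT mean of 1.78 ± 0.719 CPM. All SCA1 mice were again below all WT mice, although the lowest WT mouse, with 1.02 CPM, came close to the highest values of the edited mice. SCA1 S776A mice had 0.713, 0.882, 0.852 and 0.565 CPM, or 42.3% of the WT mean. S776A double mice had 0.493, 0.786, 0.96 and 0.718 CPM, or 41.6% of it. Both groups stayed below the WT range, and both overlapped the SCA1 range. As given for Chrna3, ranges wholly below WT were seen for 4.99% of genes in SCA1, 2.52% in SCA1 S776A and 3.54% in S776A double mice.

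**Figure D1:**
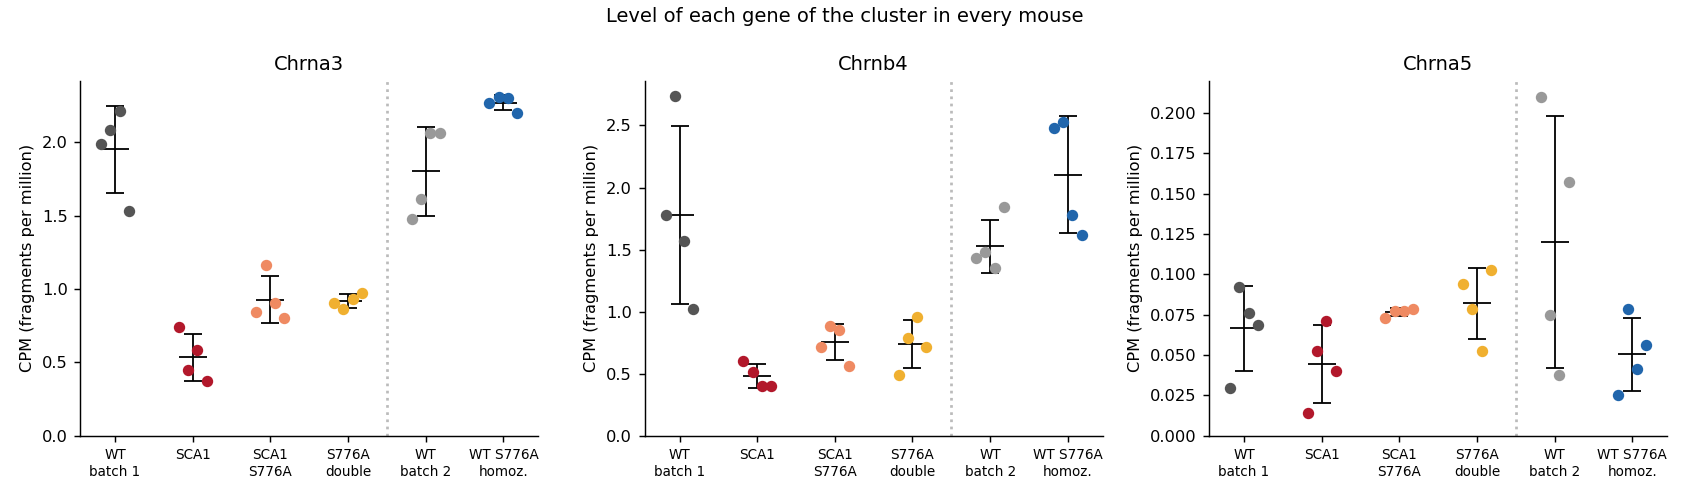
Level of Chrna3, Chrnb4 and Chrna5 (CPM, linear axes from 0) in each of 24 mice by genotype, with batch 1 left and batch 2 right of the dotted line. Points are mice, and black bars show the mean and SD of 4 mice. For Chrna3 and Chrnb4 the 12 mice with the expanded allele lie below all 8 WT mice, while Chrna5 stays at or under 0.21 CPM and shows no such order.

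Set against WT mice of both batches, the order was the same. The 12 mice with the expanded allele had 0.374 to 1.16 CPM of Chrna3, and the 8 WT mice 1.48 to 2.21 CPM. For Chrnb4 the 12 mice had 0.399 to 0.96 CPM and the 8 WT mice 1.02 to 2.74 CPM. No mouse of the first kind reached the lowest WT mouse for either gene, a pattern that 48 of the 22502 genes tested, or 0.213%, showed. In bulk tissue, fewer cells of a type and less RNA per cell cannot be told apart.

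The serine change on 2 unexpanded alleles went with values at or above those of WT. Chrna3 was at 2.27, 2.31, 2.3 and 2.2 CPM in WT S776A homozygous mice and at 1.48, 1.61, 2.06 and 2.06 CPM in WT mice of batch 2. The ranges did not overlap, and the mean of 2.27 ± 0.0515 CPM was 126% of the WT mean of 1.8 ± 0.301 CPM. Among all genes, 1.32% had a range wholly above WT in this comparison. Chrnb4 was at 2.48, 2.53, 1.78 and 1.62 CPM against 1.43, 1.48, 1.35 and 1.84 CPM in WT. Here 2 of 4 homozygous mice exceeded every WT mouse and the ranges overlapped, with a mean 138% of that of WT. Xist, the X-inactivation RNA of female cells, was at 459 to 830 CPM in 5 mice and at most 1.04 CPM in the other 19. The 5 were S776A double mouse 1, WT S776A homozygous mice 3 and 4 and WT mice 6 and 7, so that all SCA1, SCA1 S776A and batch 1 WT mice were in the low set. Chrnb4 was at 0.493 CPM in that S776A double mouse and at 1.78 and 1.62 CPM in those homozygous mice, the lowest of their groups, and at 1.48 and 1.35 CPM in those WT mice, which are not both the lowest of theirs. The part of sex in these levels was not tested beyond a fit with Xist as a covariate. There Chrnb4 had a log2 fold change of 0.46 (SE 0.21) in homozygous mice, the same size as without it. Both groups of batch 2 held equally many mice with high Xist, so the covariate could hardly move this value. In S776A double mice, where only mouse 1 and no WT mouse of batch 1 had high Xist, Chrnb4 went from -1.27 (SE 0.24) to -1.17 (SE 0.22).

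Chrna5, the accessory subunit, was near the limit of detection. Its counts were 2, 6, 5 and 5 fragments in WT mice of batch 1, and 1, 4, 5 and 3 in SCA1 mice. SCA1 S776A mice had 5, 5, 6 and 6 fragments, and S776A double mice had 8, 6, 4 and 8. By fragments all 4 groups of batch 1 overlapped, and by CPM SCA1 mice (0.0139 to 0.0713) ended just under SCA1 S776A mice (0.0728 to 0.0788). WT mice of batch 2 had 18, 6, 3 and 12 fragments and WT S776A homozygous mice 2, 6, 3 and 4, so that the highest counts were in 2 WT mice. Summed over 4 mice, Chrna5 gave 0.0672 CPM without TMM scaling in WT mice of batch 1 (exact Poisson 95% interval 0.0398 to 0.106) and 0.0457 in SCA1 mice (0.0243 to 0.0781), intervals that cover counting error only. The gene did not pass the filter on low counts and is absent from the counts of genes tested. Fitted with no such filter, its log2 fold change against WT was -0.57 (95% interval -1.73 to 0.59) in SCA1, 0.21 (-0.87 to 1.28) in SCA1 S776A and 0.31 (-0.74 to 1.35) in S776A double mice. These intervals include no change and do not reach the fold changes of Chrna3 and Chrnb4 given next. In WT S776A homozygous mice the same fit gave -1.24 (95% interval -2.27 to -0.22). This interval excludes no change, is not adjusted for the number of genes, and rests on the few fragments given above. Its sign is opposite to that of Chrna3 and Chrnb4 in these mice. The difference between the genes was not tested.

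Fold changes fitted with genotype and batch in edgeR were of like size for both genes. For Chrna3 the log2 fold change against WT was -1.86 (SE 0.18) in SCA1, -1.08 (SE 0.17) in SCA1 S776A, -1.08 (SE 0.17) in S776A double and 0.33 (SE 0.16) in WT S776A homozygous mice. For Chrnb4 it was -1.89 (SE 0.25), -1.24 (SE 0.24), -1.27 (SE 0.24) and 0.46 (SE 0.23) in the same order. The log2 change of Chrna3 in SCA1 S776A and S776A double mice was 57.7% and 58.2% of that in SCA1 mice, and that of Chrnb4 65.6% and 67.1%. Ordered by mean level, Chrna3 went from WT S776A homozygous over WT of batch 1, WT of batch 2, SCA1 S776A and S776A double down to SCA1 mice. In that order the 3 highest groups overlapped with their neighbours, SCA1 S776A and S776A double overlapped with each other, and the steps from WT to the edited mice and from these to SCA1 mice were free of overlap. Chrnb4 had the same order of means.

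Whether the serine change moved the cluster in mice that carry the expanded allele was asked by comparing these mice directly, with the reservation that the SCA1 mice were among those that led to the choice of the genes. Chrna3 was higher in SCA1 S776A than in SCA1 mice by 0.79 on the log2 scale (95% interval 0.41 to 1.16), in 16 of 16 pairs of mice, with an unadjusted p of 0.000216 and an adjusted p of 0.3 by edgeR's quasi-likelihood test over all genes. In S776A double against SCA1 mice the difference was 0.78 (0.40 to 1.15), also in 16 of 16 pairs, with an unadjusted p of 0.000231 and an adjusted p of 0.815 by the same edgeR test. Neither passed the call, an adjusted p under 0.01 with a log2 fold change beyond 0.5, which 0.00444% of genes passed in the first contrast and 0% in the second. The pairs set each of 4 mice against each of 4 others and are not matched. A count of 16 of 16 therefore says only that the ranges did not overlap. Ranges wholly above those of SCA1 mice occurred for 1.73% and 1.57% of genes.

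Chrnb4 differed less clearly between these groups. It was higher by 0.65 (0.10 to 1.19) in SCA1 S776A than in SCA1 mice, in 15 of 16 pairs, with an edgeR adjusted p of 1.0. In S776A double against SCA1 mice it was higher by 0.62 (0.08 to 1.16), in 14 of 16 pairs, again with an edgeR adjusted p of 1.0. Mice with the serine change on 1 allele or on both were compared next. Between S776A double and SCA1 S776A mice Chrna3 differed by -0.01 (95% interval -0.37 to 0.35) and Chrnb4 by -0.03 (-0.55 to 0.49), both with an edgeR adjusted p of 1.0, and these intervals still allow a change of either sign.

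The balance of the receptor's ligand-binding subunits overlapped between all groups. Per kb of exon, the log2 ratio of Chrnb4 to Chrna3 was 0.27 ± 0.31 (SD, n = 24) over all mice, and its group means ran from 0.15 ± 0.4 in S776A double mice to 0.36 ± 0.35 in SCA1 mice. The highest single ratio, 0.9, was in a WT mouse of batch 1. Across the 16 mice of batch 1, Pearson's r between log2 CPM of Chrna3 and Chrnb4 was 0.906, rank 3 among 22501 genes, where the median gene had 0.001. These points share genotype and library depth, and both genes had been chosen for their low level in the mutant mice of this batch, which by itself makes r high. After the mean of each genotype and batch was taken off, r over 24 mice was 0.47 and Chrnb4 stood at rank 617.

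**Figure D2:**
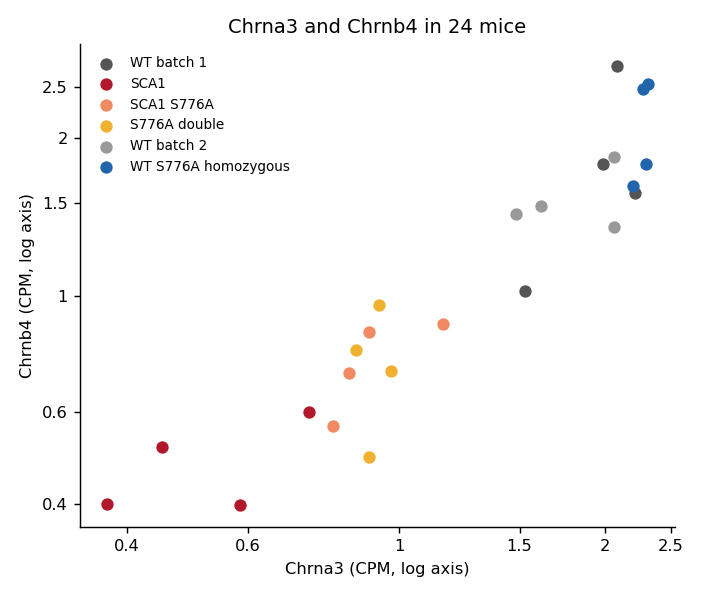
Chrna3 (CPM, horizontal log axis) against Chrnb4 (CPM, vertical log axis) in 24 mice, coloured by genotype and batch. SCA1 mice sit lowest for Chrna3, the mice with the serine change on an expanded allele sit next, and the WT and WT S776A homozygous mice fill the upper right corner from 1.48 CPM of Chrna3 upwards.

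The genes whose pattern over the 16 mice of batch 1 was most like that of Chrna3 were Mmp17, a membrane-anchored metalloproteinase gene, with r = 0.92, Psd with r = 0.909, Chrnb4, Clstn2, a synaptic calsyntenin gene, with r = 0.886, and Il20rb, an interleukin receptor subunit gene, with r = 0.882. Their mean levels were far above that of Chrna3, from 40.7 CPM for Mmp17 to 160 CPM for Psd, and their changes were smaller. In SCA1 against WT the log2 fold change was -0.76 (SE 0.08) for Il20rb, -0.76 (SE 0.12) for Clstn2, -0.50 (SE 0.08) for Mmp17 and -0.39 (SE 0.12) for Psd. As these genes were picked for following Chrna3 over mice that differ by genotype, a lower level in SCA1 mice comes with the choice. Within genotype and batch another set stood closest, namely Gm21885 with r = 0.767, Gm38147, Ccnf, Utp15 and Tcap with r = 0.712. Of all these genes, Clstn2 (97444395 to 98033181) and Il20rb (100457719 to 100486788) lie on chromosome 9 besides Chrnb4. Gm38147 averaged 0.123 CPM, a level at which single fragments count.

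Chrnb4 and Chrna3 ranked 5 and 6 among 16 subunit genes by mean level per kb of exon over all mice. Per kb of exon, Chrnb2 led with 15.8 ± 0.929 CPM in WT mice of batch 1, and Chrnb1, Chrna7 and Chrna4 followed with 2.13 ± 0.215, 0.963 ± 0.0677 and 0.919 ± 0.071 CPM per kb. Chrnb2, Chrna7 and Chrna4 encode the subunits of the main nicotinic receptors of the brain, and Chrnb1 a subunit of the receptor in muscle. Chrnb4 and Chrna3 came next with 0.478 ± 0.193 and 0.371 ± 0.0567 CPM per kb in these WT mice, and were at 0.129 ± 0.026 and 0.102 ± 0.0304 CPM per kb in SCA1 mice, near the 0.0968 ± 0.0209 of Chrna2. Chrna5 was at 0.0213 ± 0.00846 CPM per kb in WT mice of batch 1. Chrna9, Chrng and Chrnd never exceeded 3 fragments in a library.

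**Figure D3:**
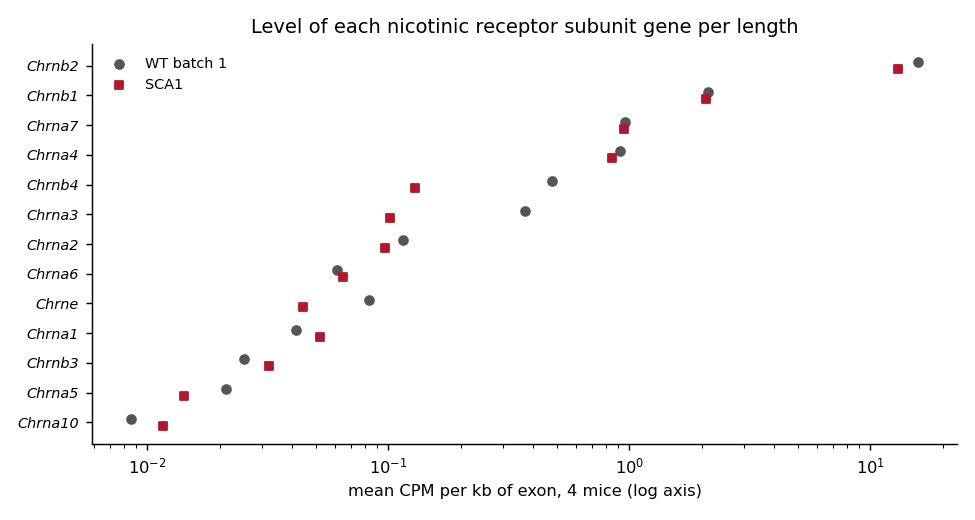
Mean level per exon length (CPM per kb, log axis, 4 mice each) of the 13 nicotinic subunit genes that exceeded 3 fragments in at least 1 library, for WT mice of batch 1 (grey circles) and SCA1 mice (red squares). Chrnb4 is at 0.478 and 0.129 and Chrna3 at 0.371 and 0.102, and symbols of most other subunits lie close together.

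None of the other subunits passed the call. Of 13 such genes 9 were tested, and in SCA1 against WT 0 were called by edgeR and 0 by DESeq2, where 0.173% of all genes were called by edgeR. At an unadjusted p under 0.05 there was 1 of 9, Chrnb2, beside 8.25% of all genes, with a log2 fold change of -0.27 (SE 0.11) and an edgeR adjusted p of 0.455. The median of the 9 was -0.03, and 0 over all genes tested. In SCA1 S776A mice Chrna4 stood at -0.41 (SE 0.14) with an edgeR adjusted p of 1.0, and Chrna6, a subunit of receptors on dopaminergic terminals, at 0.73 (SE 0.35) with the same adjusted p. In S776A double mice Chrna6 stood at 0.75 (SE 0.35) with an edgeR adjusted p of 0.709. By edgeR and by DESeq2, calls were made for 0 of 9 in these 2 genotypes as well (1 and 2 at an unadjusted p under 0.05, beside 3.93% and 6.93% of all genes), where the background was 0.0133% and 0.0267%, and for 0 of 9 in WT S776A homozygous mice, where it was 0% and 0 of 9 were past that unadjusted p, beside 9.98% of all genes.

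**Figure D4:**
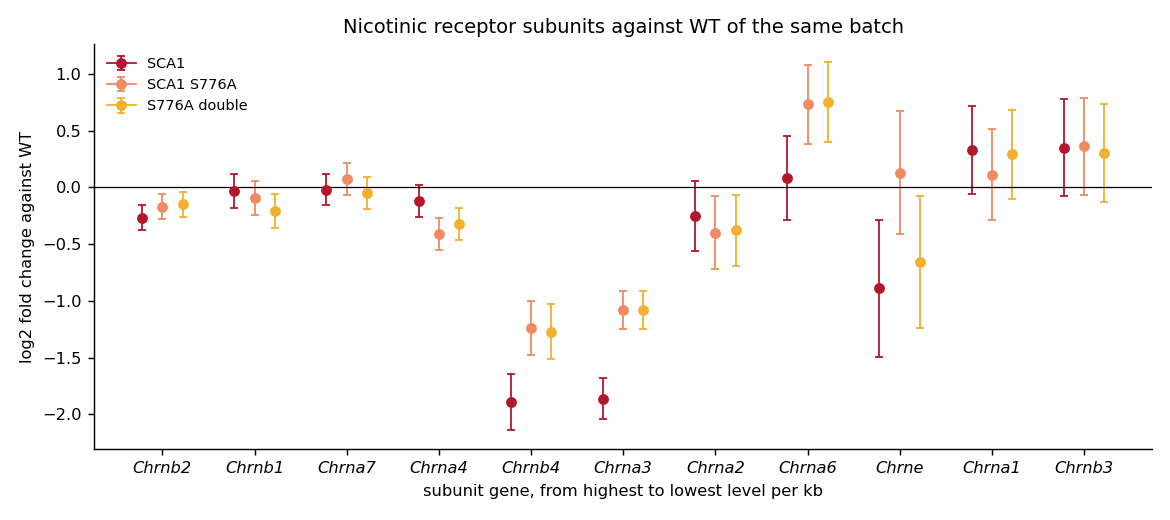
Log2 fold change against WT (vertical axis, edgeR with the batch as a term, bars are SE) of Chrna3, Chrnb4 and the 9 other nicotinic subunits tested, in SCA1 mice and in the 2 genotypes with the serine change on the expanded allele, 4 mice each. Chrna3 and Chrnb4 lie at or below -1.08 in each genotype, and the other subunits between -0.89 and 0.75.

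Among genes that act with the receptors none passed the call. Of 10 chaperones and modulators, all tested, 0 were called in SCA1 mice by edgeR or DESeq2, with 2 of 10 past an unadjusted p of 0.05 (Tmem35a higher, Lypd6 lower), beside the 8.25% of all genes, and a median log2 fold change of 0.03. Tmem35a, the chaperone NACHO, stood at 0.20 (SE 0.05, edgeR adjusted p = 0.096), and Ric3, which also helps receptor assembly, at -0.09 (SE 0.06, edgeR adjusted p = 0.782). Lynx1, a membrane-anchored brake on nicotinic receptors, stood at 0.02 (SE 0.08). Of 8 genes for acetylcholine synthesis, transport and breakdown 6 were tested, with 0 called by edgeR or DESeq2 and 0 at an unadjusted p under 0.05, and Ache, acetylcholinesterase, stood at -0.03 (SE 0.10). Of the 5 muscarinic receptor genes, which encode the G protein-coupled acetylcholine receptors, 0 were called by either tool and 1 of 5 was at an unadjusted p under 0.05. This was Chrm3, with an unadjusted edgeR p of 0.00381, at 0.50 (SE 0.16, edgeR adjusted p = 0.237). Over all genes, 0.173% were called by edgeR and 8.25% were past that unadjusted p, so lists this short would seldom hold a call.

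Transcription factors known to bind or drive the cluster also gave no call. Of 8 listed 7 were tested in SCA1 against WT, with 0 called by edgeR or DESeq2 and 0 at an unadjusted p under 0.05. Over all genes, 0.173% were called by edgeR and 8.25% were past that unadjusted p, so a list this short would seldom hold a call. Sp1 and Sp3, which bind the GC box, stood at 0.00 (SE 0.07) and 0.01 (SE 0.09), and Sox10 at 0.02 (SE 0.09). Pou4f1, the habenular factor Brn3a, averaged 0.121 CPM.

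Among the genes around the cluster none passed the call. Of 29 genes annotated within 500 kb, 16 were tested and 0 were called in SCA1 mice by edgeR or DESeq2, where by edgeR 0.173% of all genes were called. At an unadjusted p under 0.05 were 2 of 16 (Idh3a higher, Tmem266 lower), close to the 8.25% of all genes, with log2 fold changes from -0.23 to 0.16. On the side of Chrna5, Psma4, a proteasome subunit gene, stood at 0.03 (SE 0.08), Hykk, a hydroxylysine kinase gene, at -0.13 (SE 0.10) and Ireb2, an iron regulatory protein gene, at 0.05 (SE 0.08). On the side of Chrnb4, Ube2q2 stood at -0.04 (SE 0.06), Fbxo22 at -0.01 (SE 0.06), both genes of the ubiquitin system, and Nrg4, a neuregulin gene, at -0.23 (SE 0.14). In WT S776A homozygous mice 0 neighbours were called. There 4 of 16 were higher and 0 lower at an unadjusted edgeR p under 0.05, beside 9.98% of all genes in either direction. In SCA1 S776A mice 0 of 16 were past it, and in S776A double mice 2 of 16, both higher, beside 3.93% and 6.93% of all genes. The antisense gene Gm47877 inside Chrnb4 had at most 4 fragments in a library. The counting used here ignored strand, and adding the columns counted by strand gave 4 more fragments for Chrnb4, 0.183% of its total, and 0 for Chrna3 and Chrna5.

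**Figure D5:**
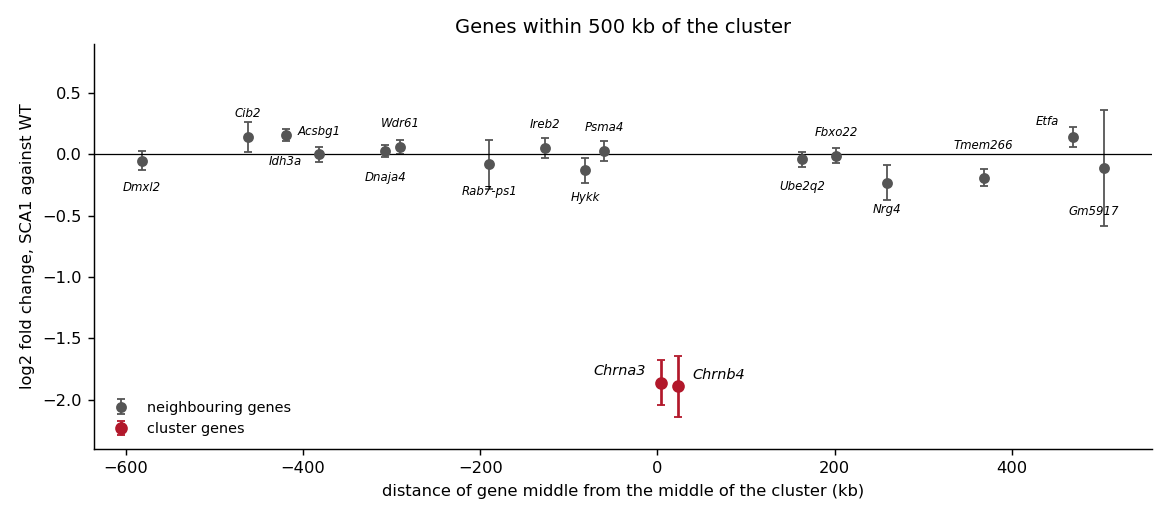
Log2 fold change in SCA1 against WT (vertical axis, bars are SE) of the 16 neighbouring genes tested (grey) and of Chrna3 and Chrnb4 (red) by the distance of the middle of each gene from the middle of the cluster (kb, horizontal axis). The neighbours lie between -0.23 and 0.16, and Chrna3 and Chrnb4 at -1.86 and -1.89.

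Purkinje cell markers were lower in SCA1 mice too, by less than Chrna3 and Chrnb4. Summed over 7 markers, their level was 8100 to 9400 CPM in WT mice of batch 1 and 6070 to 6840 CPM in SCA1 mice, 75.9% of the WT mean. It was 89.7% in SCA1 S776A, 87.7% in S776A double and 93.8% in WT S776A homozygous mice. In SCA1 mice 6 of 7 were lower at an unadjusted p under 0.05, where 8.25% of all genes were past that level in either direction. By edgeR 0 were called, beside 0.173% of all genes, and by DESeq2 1, Rgs8. Rgs8, a regulator of G protein signalling, had a log2 fold change of -0.53 (SE 0.11, edgeR adjusted p = 0.0152), and the median of the 7 was -0.28. Divided by the marker sum of the same mouse, Chrna3 was at 36.1% of the WT mean in SCA1, 53.5% in SCA1 S776A and 54.1% in S776A double mice, each range below WT. Chrnb4 on that scale was at 35.2% in SCA1 mice with separate ranges, and at 47.4% and 48.8% in the other 2 genotypes, where the ranges overlapped with WT. This scale was chosen after the values had been seen, and no share over all genes was taken on it. Both genes had been chosen for low levels against WT. The marker sum is a level of RNA and not a count of cells.

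Markers of other cells differed between groups or between mice of a group. Unipolar brush cell markers, 4 of 4 detected, summed to 453 to 510 CPM in WT mice of batch 1 and 599 to 655 CPM in SCA1 mice, and most of that sum was Calb2, whose log2 fold change was 0.42 (SE 0.10, edgeR adjusted p = 0.0635). Lmx1a stood at 0.61 (SE 0.42), and the other 2 markers had the opposite sign, Eomes with -0.29 (SE 0.39) and Sln with -0.23 (SE 0.28). Choroid plexus markers, 5 of 5 detected, ranged from 20.5 to 1730 CPM within WT mice of batch 1 and from 889 to 5110 CPM in SCA1 mice. Brainstem markers were near their floor, with 0.643 to 1.17 CPM over 6 genes in WT mice of batch 1, 0.949 to 3.13 CPM in SCA1 mice and at most 7.77 CPM, in an S776A double mouse. Of the choroid plexus markers 0 were called in SCA1 mice by edgeR or DESeq2, and 0 were past an unadjusted p under 0.05. Medial habenula markers, for the brain region in which the cluster is most active, summed to 20.1 to 22.8 CPM in WT mice of batch 1 and 16.8 to 19.7 CPM in SCA1 mice. All 4 were detected in at least 1 of the 24 libraries, and Nwd2 alone averaged 19.6 CPM over all mice. Of the 3 tested, Nwd2 stood at -0.20 (SE 0.09, edgeR adjusted p = 0.569) and Gpr151 at -0.13 (SE 0.25). Pou4f1 had the opposite sign with 0.65 (SE 0.51). Molecular layer interneuron markers summed to 333 to 407 CPM in WT mice of batch 1 and 287 to 325 CPM in SCA1 mice, with a median log2 fold change of -0.18 over 3 markers. For Purkinje, habenula and molecular layer interneuron markers the sums of SCA1 mice lay wholly below those of batch 1 WT mice. For unipolar brush cell markers they lay wholly above. Most of the habenula sum was Nwd2. Among single genes, 4.99% had a range wholly below WT in SCA1 mice. No share is given for ranges above WT, and none was taken for sums of markers. Granule cell markers lay at 4660 to 4990 CPM and 3970 to 4770 CPM in these groups, which overlapped. Golgi cell, molecular layer interneuron, Bergmann glia, oligodendrocyte, microglia and cerebellar nuclei markers gave 0 calls in SCA1 mice by edgeR or DESeq2. In that order 3, 3, 4, 4, 4 and 4 genes were tested. At an unadjusted edgeR p under 0.05 were 1 lower (Kit) and 1 higher (Mbp). Over all genes, 0.173% were called by edgeR and 8.25% were past that unadjusted p, a share near that in these lists. The part of any of these cells in the levels of Chrna3 and Chrnb4 was not tested.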

How the data were processed

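RNA from the cerebellum of 24 mice was sequenced as paired reads. The authors deposited raw counts per gene. The submitters' processing notes name Trimmomatic 0.36 for trimming, STAR 2.7.2d for alignment, the build GRCm38.p6 and DESeq2 1.28.1, and the study's methods add ComBat-seq for the batches. Here the unstranded count column was used. One row from another genome was left out of totals. Batches were inferred by k-means on 4 mapping shares (k = 2, mean silhouette 0.634). Of 54232 genes, 22502 passed edgeR's expression filter. Fits used edgeR 4.0.16 in R 4.3.3 (quasi-likelihood, TMM, genotype plus batch), with Benjamini-Hochberg adjustment over all tested genes and a call at adjusted p under 0.01 and a log2 fold change beyond 0.5. The code of the fit was also run on simulated counts in which every gene had the same spread. That run does not show how the fit behaves for genes as variable as Chrnb4. DESeq2 1.42.0, ComBat-seq (sva 3.50.0), other filters, scalings and left-out mice were alternatives. Annotation was GENCODE M21 for 54165 of 54232 genes.

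The members and gene lists were chosen with earlier results of these data known. Named genes were the members, up to 4 list genes of highest level or called, the 3 nearest tested genes on each side, and the 5 genes most correlated with Chrna3. Chrna2, Chrna6, Lypd6, Tmem35a, Pou4f1, Idh3a, Tmem266 and subunits at the floor were named after their values were seen. Some listed genes are not reported here. Marker lists are given as summed CPM, although mean log2 CPM had been planned. A library held 62163600 to 88430180 fragments on genes, and 3 fragments were taken as the detection floor.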

Additional observations from a re-analysis of the deposited data

How the results depend on the processing

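No paired analysis was possible because the labels give each mouse only an identifier of its own, and the mouse numbers used here follow accession order and tie no mice together. Across 9 other settings (filters, scalings, DESeq2, ComBat-seq, 1 batch, strand columns, Xist as a covariate) the log2 fold changes of Chrna3 and Chrnb4 against WT moved by less than 1 SD between mice. Per Purkinje marker sum, a scale added after the values were seen, Chrna3 moved to -1.47 in SCA1 and -0.89 in S776A double mice. With Xist as a covariate, Chrnb4 in S776A double against SCA1 S776A mice turned to 0.10. Rgs8 made the count of list genes called in SCA1 mice 1 in place of 0 with no batch term, with DESeq2, with ComBat-seq then DESeq2, with mice of 1 batch, without WT S776A homozygous mouse 4 and at an adjusted p under 0.05. The cause was not tested. No contrast between the genotypes with the expanded allele was called for Chrna3 or Chrnb4 in these settings, where the adjusted p of Chrna3 in SCA1 S776A against SCA1 mice ran from 0.0479 to 0.939, and counts of neighbours called stayed at 0.

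With 1 mouse left out at a time, Chrna3 against WT ran from -2.06 to -1.73 in SCA1, -1.20 to -1.01 in SCA1 S776A, -1.19 to -1.02 in S776A double and 0.25 to 0.41 in WT S776A homozygous mice, and Chrnb4 from -2.09 to -1.60, -1.43 to -0.95, -1.47 to -0.98 and 0.35 to 0.57. Against SCA1 mice, Chrna3 ran from 0.66 to 0.99 and 0.65 to 0.97, and Chrnb4 from 0.57 to 0.78 and 0.47 to 0.78. S776A double against SCA1 S776A mice ran from -0.08 to 0.11 for Chrna3, positive without S776A double mouse 2 (0.02) or SCA1 S776A mouse 2 (0.11), and from -0.18 to 0.12 for Chrnb4, positive without S776A double mouse 1 (0.12) or SCA1 S776A mice 2 (0.05) or 3 (0.04).

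Spearman's rho in place of r kept 1 of 5 and 2 of 5 of the genes most like Chrna3. Over batch 1 the gene kept was Chrnb4, and within genotype and batch Gm21885 and Ccnf were kept. With no filter Chrna5 had a log2 fold change of -0.57 (SE 0.58) in SCA1 and -1.24 (SE 0.51) in WT S776A homozygous mice. Depth limits Chrna5 most, with 1 to 18 fragments a library. The batches are inferred, and founder line, litter and sex are not in the labels.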
